A study of Mus musculus with 6 samples.

Results

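The transcripts described here encode 2 nitric oxide (NO) synthases, Nos2 and Nos1, the dimethylarginine dimethylaminohydrolases Ddah1 and Ddah2, and 5 parts of the phagocyte NADPH oxidase, Cybb, Cyba, Ncf1, Ncf4 and Rac2. They were chosen by name: the synthases depend on tetrahydrobiopterin (BH4), the hydrolases are tied to the breakdown of an inhibitor of NO synthesis and the oxidase forms superoxide. Their Ensembl identifiers were matched by GENCODE, and all 9 had a row among the 12327 genes of the table and entered the test. RNA came from BV2 cells, an immortalised mouse microglial line, in 3 libraries labelled GCH1-KD and 3 labelled negative control. The GCH1-KD cells carried an adenoviral short hairpin RNA against GCH1 (Ad-shGCH1) for 48 hours, and the control is called Ad-NC in one label and wild type in another, so whether it carried a virus cannot be told from them. All libraries share the same line and medium, high-glucose Dulbecco's medium with fetal bovine serum, and the labels name no activating stimulus. A single immortalised line under a partial knockdown is a limited model of microglia. The labels do not state whether the 3 libraries of a group are separate cultures, so the p-values measure spread between libraries that may be technical only.

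NO synthases make NO and citrulline from arginine, and need BH4 bound at the enzyme's dimer interface; without enough BH4 they can pass electrons to oxygen and form superoxide instead. Asymmetric dimethylarginine (ADMA), released from methylated proteins, competes with arginine at these enzymes and is degraded by DDAH1. The phagocyte oxidase is a second source of superoxide in microglia: a membrane pair of CYBB (gp91phox) and CYBA (p22phox) passes electrons from NADPH to oxygen once cytosolic subunits, among them NCF1 (p47phox) and NCF4 (p40phox), and a Rac GTPase have joined it. NO and superoxide combine into peroxynitrite. In macrophages and microglia Nos2 is known to be weakly transcribed at rest and strongly induced by interferon gamma and bacterial products.

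The hairpin's target is at the head of this pathway, since GCH1 makes the first committed intermediate of BH4. Gch1 was at 3.20, 2.93 and 3.43 FPKM in the knockdown libraries, against 6.89, 7.22 and 7.23 FPKM in the controls (FPKM, a fragment count scaled to transcript length and library size). Its knockdown mean was 44.8% of the control mean, and the limma test with Benjamini-Hochberg (BH) adjustment over 12222 genes gave an adjusted p of 0.00542. The limma adjusted p was 0.06 with the replicate number of the titles as a block. The libraries held an estimated 6.32 to 7.61 Gb of aligned sequence in the knockdown and 5.25 to 5.58 Gb in the controls, so that 1 FPKM stands for a mean coverage of 6.32 to 7.61 reads per base in the knockdown libraries and 5.25 to 5.58 in the controls. All 11 microglial and macrophage markers examined had a row, with summed levels of 1038 to 1070 FPKM in the knockdown and 1072 to 1089 FPKM in the controls. Markers of neurons and neutrophils had no row (0 of 6 each), and 1 or 2 of 6 had one for astrocytes, oligodendrocytes, endothelium, fibroblasts and lymphocytes. The microglial sums did not overlap between the groups, nor did the lymphocyte marker Lck, at 0.561 to 0.875 FPKM in the knockdown and 0.895 to 1.003 FPKM in the controls. No marker passed the limma test (BH adjusted p under 0.05). Of all genes tested, 18.4% had groups that did not overlap. The part of these marker differences or of the greater depth of the knockdown libraries in the results was not tested. As the samples are bulk cultures, fewer cells expressing a gene and less RNA per cell cannot be told apart.

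None of the 9 transcripts passed the test (limma, BH adjusted p under 0.05), where 10 of 12222 genes did, or 0.0818%. That count was 18 without control 2, 6 without knockdown 2 or knockdown 3, and 0 with the replicate number of the titles as a block. Their differences were small. Nos2, Ddah2 and Cybb lay higher in every knockdown library than in every control, Ddah1 and Rac2 lay lower in every knockdown library, and the groups of Nos1, Cyba, Ncf1 and Ncf4 overlapped. Over all genes tested, groups did not overlap in 18.4%, with 9.99% higher and 8.36% lower in the knockdown. At an unadjusted p under 0.05 there were 5 of the 9, the same 5 whose groups did not overlap, against 11.3% of all genes. The members were picked with earlier results of these data known, and no test of the set was made. The median log2 fold change was -0.04 over the 9 members and 0.01 over all genes. A 1.5-fold change of FPKM + 1 was reached by 0 of the 9 and by 55 of 12222 genes. The added 1 shrinks the fold of genes as low as Nos2 and Ddah2.

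Upstream sequence is shown for the members that form pairs, the oxidase's membrane partners Cybb and Cyba and the paralogues Ddah1 and Ddah2, because within each pair the knockdown means lay on different sides of the control means, though the groups of Cyba overlapped. The 250 bases before the annotated start are given in the direction of transcription from RefSeq (GRCm38.p6), whose table held windows for Nos1, Ddah1, Ddah2, Cybb, Cyba and Ncf1. Capitals mark matches, on either strand, to the PU.1 core GAGGAA, the CCAAT box, the TATA box TATAAA or the GC box GGGCGG, and no matches overlap. The Cybb window lies inside the span that GENCODE gives the gene, as its RefSeq start is further downstream. The last bases of the Ddah1 window also lie inside its GENCODE span, which starts at 145758675.
Cybb, chrX:9469325-9469574, minus strand: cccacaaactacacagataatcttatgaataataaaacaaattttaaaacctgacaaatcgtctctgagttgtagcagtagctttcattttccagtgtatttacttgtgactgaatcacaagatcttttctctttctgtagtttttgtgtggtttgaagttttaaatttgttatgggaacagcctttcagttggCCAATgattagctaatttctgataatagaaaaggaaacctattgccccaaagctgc
Cyba, chr8:122432941-122433190, minus strand: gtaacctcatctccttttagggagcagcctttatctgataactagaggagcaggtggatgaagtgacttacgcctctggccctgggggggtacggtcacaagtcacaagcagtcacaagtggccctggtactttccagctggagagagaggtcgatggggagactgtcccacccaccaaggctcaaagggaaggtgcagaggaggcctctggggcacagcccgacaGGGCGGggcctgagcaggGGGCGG
Ddah1, chr3:145758442-145758691, plus strand: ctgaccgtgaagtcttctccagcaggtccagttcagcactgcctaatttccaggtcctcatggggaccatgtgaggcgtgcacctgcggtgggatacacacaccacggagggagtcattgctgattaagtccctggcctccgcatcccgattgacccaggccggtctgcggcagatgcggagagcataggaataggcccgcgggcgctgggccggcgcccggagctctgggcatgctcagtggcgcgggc
Ddah2, chr17:35058785-35059034, plus strand: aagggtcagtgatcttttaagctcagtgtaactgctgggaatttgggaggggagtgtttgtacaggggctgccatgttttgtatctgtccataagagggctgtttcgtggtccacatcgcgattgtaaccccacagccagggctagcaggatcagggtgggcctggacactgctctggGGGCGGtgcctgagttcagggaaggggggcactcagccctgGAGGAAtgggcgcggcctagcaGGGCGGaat
The Cybb window was 34.0% GC and held 1 CCAAT box, whose first base lies 56 bases before the start. The Cyba window was 60.0% GC and held 2 GC boxes, at 24 and 6 bases before the start. The Ddah2 window held 2 GC boxes and 1 PU.1 core, and the Ddah1 window held none of the 4 motifs at 64.0% GC. Of 32851 windows of this length, 23.3% held the PU.1 core, 33.8% the CCAAT box, 12.4% the TATA box and 32.7% the GC box. A match is a run of letters and not a shown binding site.

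Among the NO synthases, Nos2 (ENSMUSG00000020826.8; GRCm38 chromosome 11, 78920787 to 78960254, plus strand), the inducible enzyme of activated macrophages, was at 1.75, 1.16 and 1.37 FPKM in the knockdown and 1.12, 0.90 and 0.90 FPKM in the controls. The knockdown libraries were all higher, the lowest of them just above the highest control. The means were 1.43 ± 0.30 and 0.975 ± 0.129 FPKM in knockdown and control (SD, n = 3 each), which puts the knockdown at 146.3% of control. On the log2(FPKM + 1) scale the difference was 0.29 (SE 0.10, 95% interval 0.05 to 0.53, limma BH adjusted p = 0.376), and the two-sided exact permutation p was 0.1, the smallest value possible for 3 against 3 libraries. The pseudocount of 1 shrinks the fold of so low a gene, and with a pseudocount of 0.1 the log2 difference was 0.49 (adjusted p = 0.381, 0.32 to 0.61 over all alternatives). Mean coverage was 7.94 to 13.3 reads per base in the knockdown and 4.72 to 6.27 in the controls, and the number of reads behind it is unknown.

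Nos1 (ENSMUSG00000029361.18; chromosome 5, 117781032 to 117958840, plus strand), the enzyme first described in neurons, had a higher mean level than Nos2 over the 6 libraries. It was at 1.49, 1.59 and 1.55 FPKM in the knockdown and 2.30, 1.97 and 1.53 FPKM in the controls. The knockdown libraries agreed closely among themselves, while the controls spread widely and control 3 lay within the knockdown range. The log2 difference was -0.20 (SE 0.10, 95% interval -0.43 to 0.04, limma BH adjusted p = 0.5), with an exact permutation p of 0.3. It was -0.30 without control 3 and -0.11 without control 1, at adjusted p of 0.395 and 0.737 (0.395 to 0.737 over all alternatives). Of the 50-base stretches of its longest coding transcript, 2.21% also occur in transcripts of other genes, on either strand. An antisense gene without a row overlaps 268 exonic bases.

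Within libraries, the balance of the synthases did not overlap between the groups, while their sum did. The ratio of Nos2 to Nos1 within a library was 1.18, 0.729 and 0.884 in the knockdown and 0.489, 0.457 and 0.591 in the controls, with no overlap. Knockdown 1 was the only library in which Nos2 exceeded Nos1. The summed level was 2.97 ± 0.25 FPKM in the knockdown and 2.91 ± 0.50 FPKM in the controls (SD, n = 3 each). These ratios and sums were computed after the values were seen and carry no test. Nos3, the endothelial enzyme, had no row and was not analysed here.

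**Figure D1:**
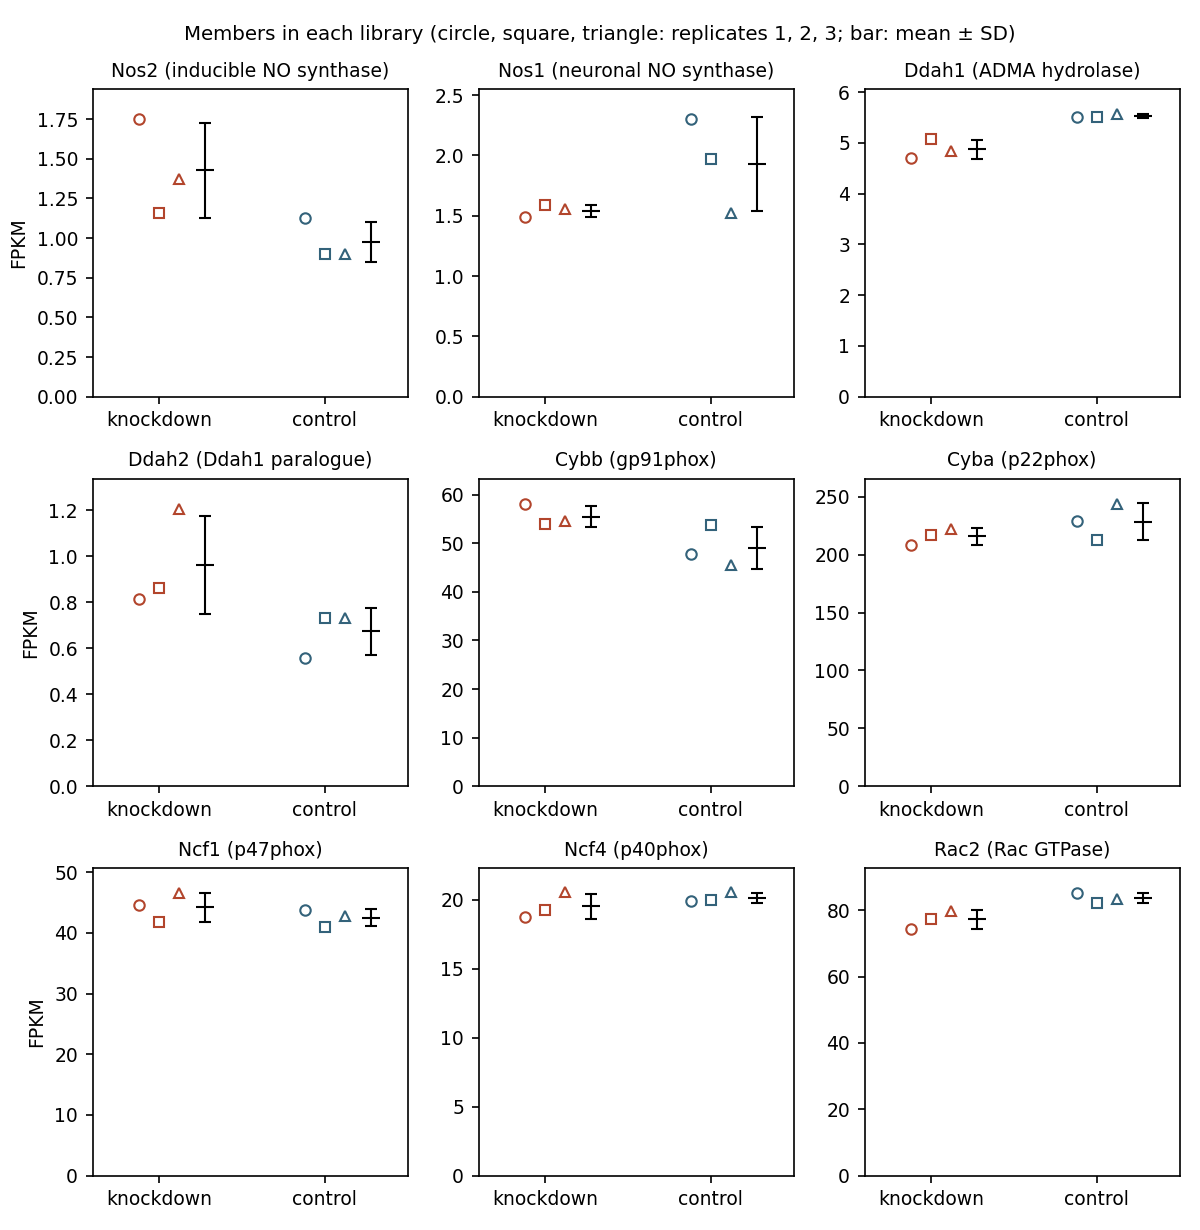
FPKM of each member in the 3 knockdown libraries (left) and the 3 control libraries (right) on linear axes from 0, each panel with its own scale; circles, squares and triangles are replicates 1, 2 and 3, and the black bar is the mean ± SD. The groups do not overlap for Nos2, Ddah1, Ddah2, Cybb and Rac2, and for Cybb the lowest knockdown library (54.0 FPKM) and the highest control (53.7 FPKM) nearly touch.

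The hydrolase paralogues also lay on different sides of the control. Ddah1 (ENSMUSG00000028194.15; chromosome 3, 145758675 to 145894277, plus strand), the main ADMA hydrolase, was at 4.71, 5.08 and 4.84 FPKM in the knockdown and 5.51, 5.51 and 5.57 FPKM in the controls. All knockdown libraries were lower, and the controls differed among themselves by little. The knockdown mean was 88.2% of control, a log2 difference of -0.15 (SE 0.05, 95% interval -0.27 to -0.04, limma BH adjusted p = 0.356; exact permutation p = 0.1). This difference was -0.13 without knockdown 1 and -0.18 without knockdown 2, at adjusted p of 0.594 and 0.507 (0.308 to 0.594 over all alternatives).

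Ddah2 (ENSMUSG00000007039.12; chromosome 17, 35059035 to 35062095, plus strand), a paralogue whose own hydrolase activity is disputed, was the weakest member. It was at 0.81, 0.86 and 1.21 FPKM in the knockdown and 0.56, 0.73 and 0.73 FPKM in the controls. The knockdown libraries were all higher, with knockdown 3 well above the other two. The mean over the knockdown libraries was 142.7% of control, a log2 difference of 0.23 (SE 0.09, 95% interval 0.004 to 0.45, limma BH adjusted p = 0.435; exact permutation p = 0.1). It was 0.14 without knockdown 3 and 0.45 with a pseudocount of 0.1, at adjusted p of 0.625 and 0.435 (0.345 to 0.647 over all alternatives). Its mean coverage was 5.92 to 7.63 reads per base in the knockdown and 3.10 to 4.04 in the controls. The ratio of Ddah2 to Ddah1 was 0.173, 0.170 and 0.249 in the knockdown and 0.101, 0.133 and 0.131 in the controls, without overlap. As Ddah2 was higher and Ddah1 lower in every knockdown library, the groups could not overlap in this ratio. The summed level of the paralogues was 5.84 ± 0.28 FPKM in the knockdown and 6.20 ± 0.12 FPKM in the controls (SD, n = 3 each), also without overlap. Ratio and sum were computed after the values were seen and carry no test.

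**Figure D2:**
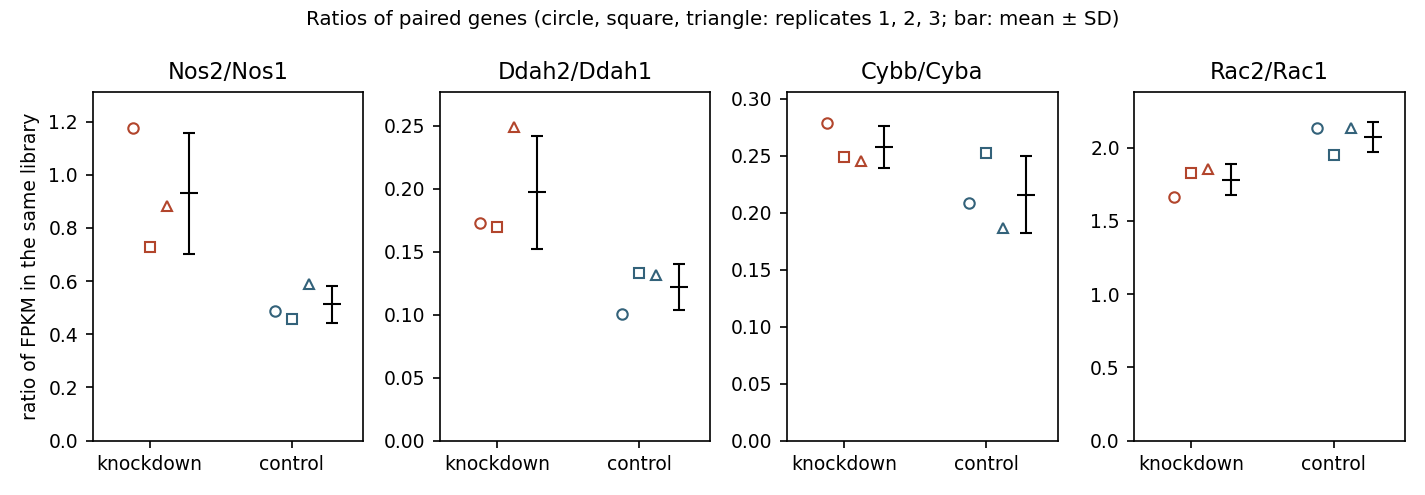
Ratio of the FPKM values of paired genes within each library, knockdown left and control right, on linear axes from 0; circles, squares and triangles are replicates 1, 2 and 3, and the black bar is the mean ± SD. The ratios Nos2 to Nos1, Ddah2 to Ddah1 and Rac2 to Rac1 do not overlap between the groups, whereas Cybb to Cyba does, with control 2 at 0.253 inside the knockdown range. For Ddah2 to Ddah1 and Rac2 to Rac1 the separation follows from that of the single genes.

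The oxidase transcripts were far more abundant than the synthases. Cybb (ENSMUSG00000015340.10; chromosome X, 9435252 to 9487771, minus strand), the catalytic subunit, was at 58.0, 54.0 and 54.5 FPKM in the knockdown and 47.9, 53.7 and 45.5 FPKM in the controls. The knockdown libraries were all higher, but control 2 lay only just below them. The knockdown mean was 113.2% of control, a log2 difference of 0.18 (SE 0.06, 95% interval 0.03 to 0.33, limma BH adjusted p = 0.385; exact permutation p = 0.1). This difference was 0.13 without control 3 and 0.24 without control 2, at adjusted p of 0.583 and 0.227 (0.227 to 0.64 over all alternatives).

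Cyba (ENSMUSG00000006519.11; chromosome 8, 122424776 to 122432930, minus strand), whose product stabilises gp91phox and docks the cytosolic subunits, was the most abundant member. It was at 208, 217 and 222 FPKM in the knockdown and 229, 213 and 244 FPKM in the controls. The groups overlapped, since control 2 lay among the knockdown libraries. The log2 difference was -0.08 (SE 0.06, 95% interval -0.21 to 0.05, limma BH adjusted p = 0.605; exact permutation p = 0.3). It was -0.03 without control 3 and -0.13 without control 2, at adjusted p of 0.878 and 0.337 (0.337 to 0.878 over all alternatives). Within a library, Cybb stood at 0.279, 0.249 and 0.245 of the Cyba level in the knockdown and 0.209, 0.253 and 0.186 in the controls.

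Of the cytosolic subunits, Ncf1 (ENSMUSG00000015950.13; chromosome 5, 134220053 to 134229625, minus strand), the organiser phosphorylated when the oxidase is switched on, was at 44.5, 41.7 and 46.5 FPKM in the knockdown and 43.8, 41.0 and 42.7 FPKM in the controls. Knockdown 2 lay within the control range and the other two knockdown libraries just above it. The log2 difference was 0.06 (SE 0.05, 95% interval -0.06 to 0.17, limma BH adjusted p = 0.693; exact permutation p = 0.4). It was 0.02 without knockdown 3 and 0.10, with groups that did not overlap, without knockdown 2, at adjusted p of 0.921 and 0.564 (0.482 to 0.921 over all alternatives). Ncf1 is the member whose reads are least certain, since 408 of its exonic bases overlap the opposite-strand gene Gtf2ird2. Of the 50-base stretches of its longest coding transcript, 8.15% occur in other genes on either strand, so these figures may share bases. Whether the authors counted by strand is not given in the sources used here.

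Ncf4 (ENSMUSG00000071715.11; chromosome 15, 78244801 to 78262580, plus strand), whose product binds phosphoinositides on phagosomes, was at 18.8, 19.2 and 20.5 FPKM in the knockdown and 19.9, 19.9 and 20.5 FPKM in the controls. Knockdown 1 and 2 lay below the controls and knockdown 3 among them. The log2 difference was -0.04 (SE 0.04, 95% interval -0.15 to 0.06, limma BH adjusted p = 0.741; exact permutation p = 0.3). It was -0.02 without knockdown 1 and -0.08, with groups that did not overlap, without knockdown 3, at adjusted p of 0.942 and 0.619 (0.619 to 0.942 over all alternatives).

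Rac2 (ENSMUSG00000033220.6; chromosome 15, 78559167 to 78572783, minus strand), the GTPase of blood cells that completes the complex, was at 74.4, 77.4 and 79.9 FPKM in the knockdown and 85.3, 82.2 and 83.4 FPKM in the controls. All knockdown libraries were lower. The knockdown mean was 92.3% of control, a log2 difference of -0.11 (SE 0.04, 95% interval -0.21 to -0.02, limma BH adjusted p = 0.373; exact permutation p = 0.1). This difference was -0.09 without knockdown 1 and -0.14 without knockdown 3, at adjusted p of 0.615 and 0.504 (0.292 to 0.615 over all alternatives). Rac1, the widely expressed relative of Rac2, lay at 43.4 ± 1.23 FPKM in the knockdown and 40.4 ± 1.56 FPKM in the controls (SD, n = 3 each). The ratio of Rac2 to Rac1 was 1.66, 1.83 and 1.85 in the knockdown and 2.13, 1.95 and 2.13 in the controls, without overlap. As Rac1 was higher and Rac2 lower in every knockdown library, the groups could not overlap in this ratio. It was computed after the values were seen and carries no test. The sum of the 5 oxidase members was 412.5 ± 10.2 FPKM in the knockdown and 424.0 ± 13.5 FPKM in the controls (SD, n = 3 each), and the groups overlapped.

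**Figure D3:**
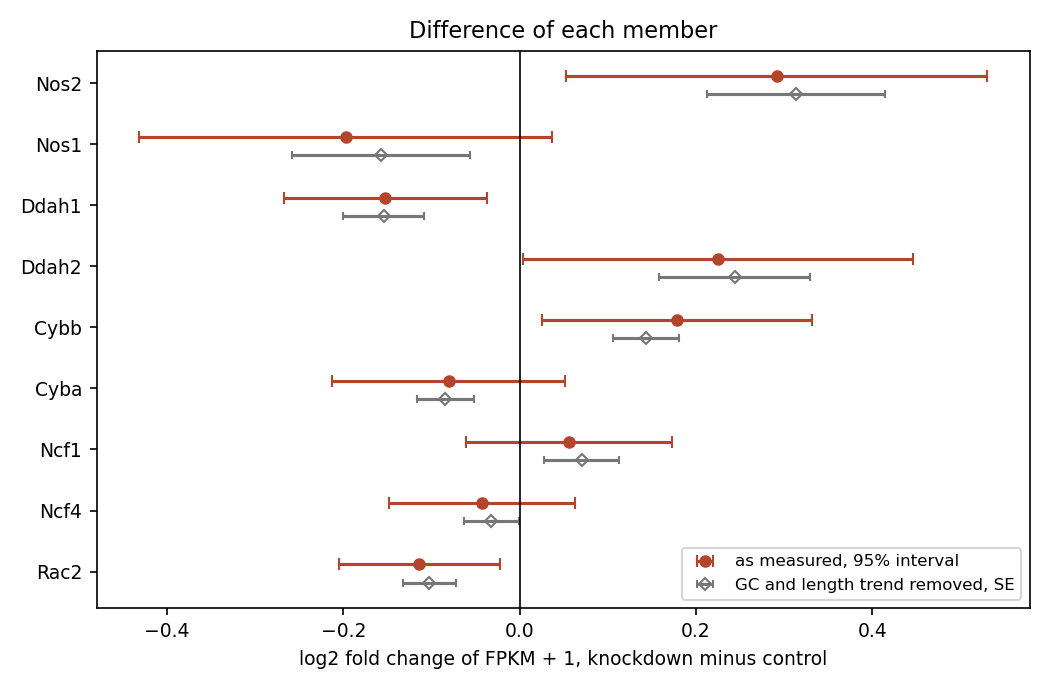
Log2 fold change of FPKM + 1, knockdown minus control, for the 9 members. Filled circles with 95% intervals are the values as measured and open diamonds with SE bars are those with the GC and length trend removed; Nos2 has the largest positive value in both (0.29 and 0.31), and no member passed the BH threshold in either.

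FPKM is scaled to transcript length, and on that scale levels are set side by side between genes. No correction of these levels was made for base composition or for sequence shared with other genes. By the mean over the 6 libraries, Cyba stood at 222.3 FPKM, Rac2 at 80.4, Cybb at 52.3, Ncf1 at 43.4 and Ncf4 at 19.8 FPKM. Ddah1 followed at 5.20 FPKM, Nos1 at 1.74, Nos2 at 1.20 and Ddah2 at 0.82 FPKM. Cyba was thus at percentile 99.3 of the genes in the table and Ddah2 at percentile 6.57. Neighbours in this order had separate ranges over the 6 libraries except for Cybb and Ncf1, Nos1 and Nos2, and Nos2 and Ddah2. Cybb exceeded Ncf1 within each of the 6 libraries, as Nos2 exceeded Ddah2, and Nos1 exceeded Nos2 in 5 of 6.

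The members differ in base composition, which moved with the groups across the whole table. Spearman's rho between the log2 fold change and the GC content of the longest coding transcript was -0.30 over 10684 protein-coding genes, which are not independent. Cybb, at 42.4% GC, belongs to the quintile of genes with the lowest GC content, where the median log2 fold change was 0.05. Cyba at 59.3% and Ddah2 at 59.4% belong to the highest quintile, with a median of -0.04, and Nos2, Nos1, Ncf1, Ncf4 and Rac2, at 52.8% to 55.7%, to the next, with a median of -0.02. With the GC and length trend removed from each library, the log2 difference of Cybb was 0.14 and that of Nos1 -0.16, while Nos2 was at 0.31, Ddah2 at 0.24, Ddah1 at -0.15 and Rac2 at -0.10. None of the 9 passed (limma BH adjusted p 0.278 for Cybb to 0.711 for Ncf4). The groups then did not overlap in 6 of the 9, the sixth being Cyba (log2 difference -0.08), against 19.5% of all genes.

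Around the members, 8 lists of the wider pathway, chosen with earlier results of these data known, held 104 genes with a row. Of these, 2 fell, the hairpin's target Gch1 and the BH4-recycling enzyme Qdpr, and none rose (limma, BH adjusted over all genes), where 0.0818% of all genes passed. Both were among the 9 tested genes of BH4 synthesis and recycling (median log2 fold change -0.01). At an unadjusted p under 0.05 there were 17 of the 104, which include the 9 members, against 11.3% of all genes. With the members left out there were 12 of 95. Qdpr was at 14.4 ± 0.88 FPKM in the knockdown and 22.4 ± 0.72 FPKM in the controls (SD, n = 3 each; log2 difference -0.61, limma BH adjusted p = 0.0131). It missed the threshold without control 1, knockdown 1 or knockdown 2, at adjusted p of 0.0513, 0.0765 and 0.0539 (0.00758 to 0.211 over all alternatives). The median log2 fold change of the 104 genes was 0.01, equal to that of all genes.

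Of arginine supply and NO synthesis, 0 of 16 genes passed, at a median log2 fold change of 0.01. The 2 at an unadjusted limma p under 0.05 were the member Nos2 and Nostrin. For this and the lists below, the share over all genes was 11.3%. Nos2 and Nos1 were the list's highest and lowest genes. The trafficking adaptor Nostrin was at a log2 difference of 0.11, the arginine transporter Slc7a1 at 0.07 and the arginine-regenerating enzyme Ass1 at -0.07 (limma BH adjusted p 0.419 to 0.712). The arginases Arg1 and Arg2 had no row.

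Of methylarginine formation and breakdown, 0 of 10 passed, at a median of 0.06. The 2 at an unadjusted limma p under 0.05 were the members Ddah1 and Ddah2. Ddah2 and Ddah1 were again the list's highest and lowest genes. The arginine methyltransferases Prmt9, Prmt3 and Prmt7 were at 0.16, 0.09 and -0.05 (limma BH adjusted p 0.471 to 0.694). Soluble guanylate cyclase, the NO receptor, and its cGMP kinases had no row. Of the other genes of that list, 0 of 4 passed (1 at an unadjusted p under 0.05), with thioredoxin Txn1 at 0.13, the S-nitrosoglutathione reductase Adh5 at 0.04 and glutathione reductase Gsr at -0.02.

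Of the NADPH oxidase subunits, 0 of 10 passed, at a median of 0.04. The 3 at an unadjusted limma p under 0.05 were the members Cybb and Rac2, and Rac1. The chaperone gene Cybc1, needed for gp91phox expression, was at 5.07 ± 0.44 and 4.84 ± 0.09 FPKM in knockdown and control (SD, n = 3 each; log2 difference 0.05, adjusted p = 0.776). Rac1 was at a log2 difference of 0.10 and Rac3 at -0.10. Other catalytic subunits were near the lower limit of the table or had no row; Nox3 was at 0.76 ± 0.13 FPKM in the knockdown and 0.72 ± 0.16 FPKM in the controls (SD, n = 3 each).

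Of the genes of oxidase assembly and activation, 0 of 22 passed, with 3 at an unadjusted p under 0.05 and a median of 0.02. The p38 kinase gene Mapk14 was at 9.12 ± 0.68 FPKM in the knockdown and 15.3 ± 4.01 FPKM in the controls (SD, n = 3 each; log2 difference -0.65, SE 0.18, limma BH adjusted p = 0.307). It passed without control 3, which at 10.6 FPKM was near the highest knockdown library (9.90 FPKM), at a log2 difference of -0.88 and an adjusted p of 0.025 (0.025 to 0.534 over all alternatives). The Rac exchange factor Prex1 was at -0.16 and the phosphoinositide kinase Pik3c3 at 0.11.

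Of superoxide and peroxide removal, 0 of 12 passed, with 3 at an unadjusted p under 0.05 and a median of -0.01. Heme oxygenase Hmox1 was at 110.5 ± 3.40 FPKM in the knockdown and 123.9 ± 1.36 FPKM in the controls (SD, n = 3 each; log2 difference -0.16, SE 0.04, limma BH adjusted p = 0.261), peroxiredoxin Prdx1 at a log2 difference of 0.14 and mitochondrial superoxide dismutase Sod2 at -0.10. Of the upstream regulators of Nos2 and Cybb transcription, 0 of 21 passed, with 1 at an unadjusted p under 0.05 and a median of -0.01. The transcription factor Cebpb was at 94.2 ± 4.68 FPKM in the knockdown and 106.9 ± 2.05 FPKM in the controls (SD, n = 3 each; log2 difference -0.18, SE 0.04, limma BH adjusted p = 0.291), the interferon receptor genes Ifngr1 at 0.10 and Ifnar2 at -0.10. The endotoxin receptor gene Tlr4, singled out afterwards as the list's largest difference (-0.63, SE 0.43, limma BH adjusted p = 0.6), was at 1.36, 1.03 and 1.45 FPKM in the knockdown and 1.54, 6.60 and 1.24 FPKM in the controls. Control 2 alone stood apart, and the groups overlapped.

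**Figure D4:**
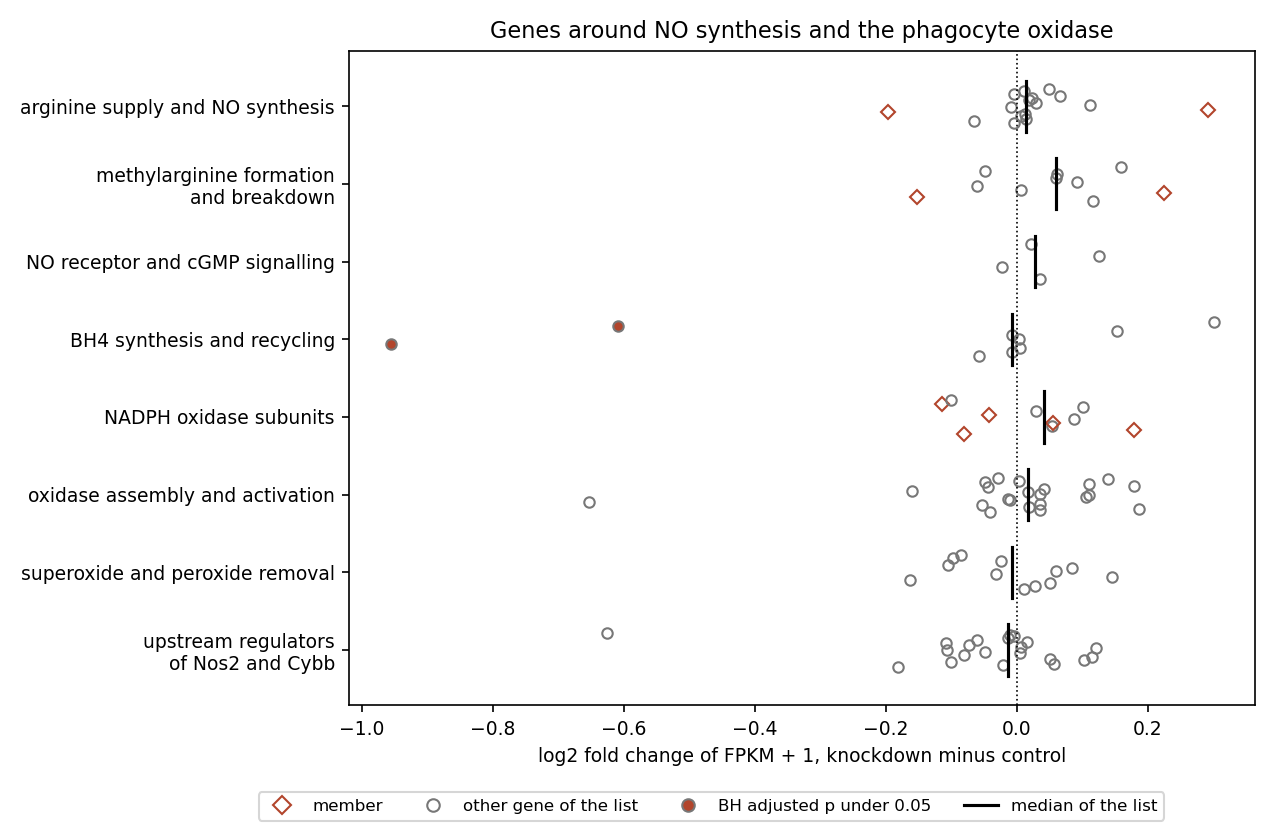
Log2 fold change of FPKM + 1, knockdown minus control, for every tested gene of the 8 lists; diamonds are the 9 members, circles other genes, filled symbols genes past the BH threshold and black bars list medians. Only Gch1 (-0.96) and Qdpr (-0.61) are filled, and Nos2 and Nos1 lie at the ends of the first list.

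Among 11195 genes of at least 1 FPKM that are no members, the library profiles nearest to Nos2 were those of Rufy4, Gm37472 and B930086L07Rik, with a mean absolute difference of 0.045, 0.045 and 0.058 on the centred log2 scale over the 6 libraries. The nearest to Cybb were Armcx5, Atxn3 and Fam76b, at 0.010, 0.015 and 0.016. The median of all genes searched was 0.16 from Nos2 and 0.11 from Cybb. A gene equal in all 6 libraries would lie at 0.15 and 0.10, so these medians mostly reflect the spread of Nos2 and Cybb themselves. None of these 6 genes, picked for likeness to members that did not pass, passed the test (limma BH adjusted p 0.314 for Rufy4 to 0.464 for Fam76b). Those near Cybb were at 39.3% to 43.5% GC and those near Nos2 at 42.3% to 54.6%.

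**Figure D5:**
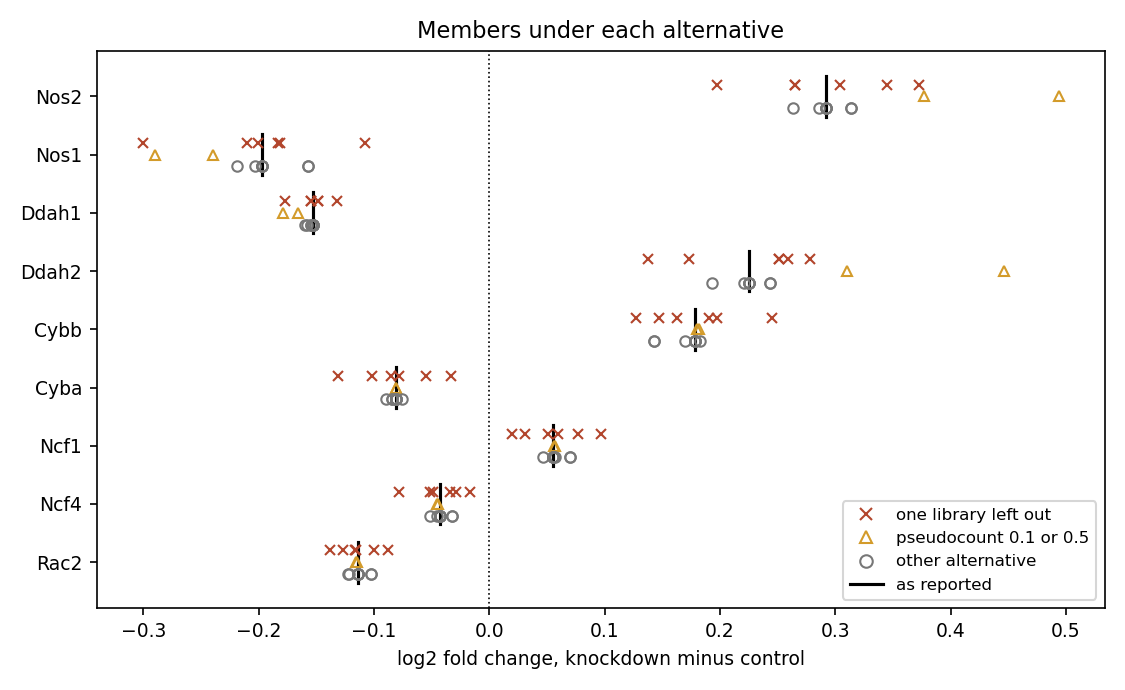
Log2 fold change of each member, knockdown minus control, as reported (black bar) and with 1 library left out (crosses), another pseudocount (triangles) or another alternative (circles). No member crosses 0, and Nos2 (0.20 to 0.49) and Ddah2 (0.14 to 0.45) have the widest ranges above it.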

How the data were processed

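The deposited table names no unit; its values were taken as FPKM computed by the authors. In genes with a single transcript, value times length lies within 0.1 of a whole number of steps for 72.5% to 75.2% of values. The median over the step sizes tried was about 20.0%. The next best step reached 28.4% to 30.8% in the knockdown libraries and 39.8% to 41.3% in the controls. The best step gave the depth. Per the submitters' processing notes, HISAT2, StringTie and edgeR were used, without versions or roles; the notes name hg38 although the identifiers are mouse. Each gene has at least 0.501 FPKM as the mean of its higher group. Per the labels' protocols, a Ribo-Zero kit removed ribosomal RNA before a stranded library preparation. Identifiers without version were matched to GENCODE M21 (GRCm38), 12300 of 12327.

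Genes reaching 0.5 FPKM in 3 or more libraries (12222) were tested with limma 3.58.1 (R 4.3.3; empirical Bayes with a mean-variance trend) on log2(FPKM + 1), without covariates, with BH adjustment over all of them at 0.05. The fit was tested on simulated data. Groups follow the genotype label. Named genes are the members, Gch1, the called genes of each list or else up to 3 with the smallest p, and the 3 nearest profiles to Nos2 and Cybb; Cybc1, Nox3 and Tlr4 were added after their values were seen, and 1 gene that the rule names is not reported here. Members and lists were chosen with earlier results of these data known. A total of 17 alternatives was run; GC and length trends were removed by loess (span 0.3). Python 3.11.15 was used for the rest.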

Additional observations from a re-analysis of the deposited data

How the results depend on the processing

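Members numbered 0 among called genes in every alternative (limma; 1 to 6 members at an unadjusted p under 0.05, against 1036 to 1657 of all genes, or 791 of the 7079 with a mean of at least 5 FPKM), and each kept its direction in each alternative it entered. Nos2, Nos1 and Ddah2 drop out at a mean of at least 5 FPKM, which leaves 3 of 6 members with groups that do not overlap, against 5 of 9 as reported (18.5% of all genes, against 18.4%). Quantile normalization leaves 3 of 9 (18.7% of all genes), as Nos2 and Cybb overlap. With 1 library left out there were 5 or 6 of 9, where 27.0% to 33.9% of all genes did not overlap. Genes called over the table, 10 as reported, numbered 6 to 18 with a library left out (18 without control 2, 6 without knockdown 2 or 3), and called genes of the lists, 2 as reported, numbered 1 to 3 (1 without control 1, knockdown 1 or knockdown 2, each time Gch1; 3 without control 3, with Mapk14). Adh5 ranged from -0.0096 to 0.066 in these fits and lay below 0 without knockdown 3. Over the 38 single-gene results and all alternatives, 638 values were set against the reported ones: 7 lost the threshold (Gch1 and Qdpr), 1 gained it (Mapk14) and 1 had the other sign (Adh5). The causes were not tested.

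With the replicate number of the titles as a block, 0 genes and 0 list genes passed, with or without the GC and length trend (limma; 1330 genes at an unadjusted p under 0.05 without the removal and 1413 with it), and Gch1 was at an adjusted p of 0.06 and 0.083. Libraries of equal number had deviations correlated at 0.09, 0.06 and 0.09. Among the libraries of the other group, each was closest to its equal-numbered one. No label states a pairing, and whether the libraries are paired was not tested. Mean coverage was lowest for Ddah2, Nos2 and Nos1 among the members, and whether depth limits their precision was not tested. Intervals cover the spread between libraries.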
